A study of Mus musculus with 6 samples.

Results

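Solute carrier genes encode the membrane proteins that move amino acids, sugars, ions, metals, transmitters and metabolites into and out of cells and organelles. They were taken as the genes whose symbol in any of the 4 deposited gene tables starts with Slc and a number, without Slc17a6, Slc17a7 and Slc32a1. This gave 242 genes of the 18778 in the tables, with 241 symbols in 44 numbered families, because Slc22a15 stood under 2 gene identifiers. The tables list genes through the peaks assigned to them, so genes without such a peak are absent, among carriers and among all genes. Every share here is therefore of scored genes, not of whole families. The rule also takes in 4 genes that are not carriers themselves: Slc4a1ap, Slc7a6os, Slc9a3r1 and Slc9a3r2. The neurons were taken at differentiation day 11 and sorted for RedStar, a red reporter that the promoter of Tau (Mapt) drives, so the sort keeps whatever cell uses that promoter. They were grown from neural stem cells (NSCs, day 0), themselves derived from mouse embryonic stem cells, which serve as the comparison. Both are labelled as C57BL/6 and passages 25 to 30, NSCs as RedStar negative, and differentiation took 4 days in one medium and then 7 in another. Chromatin of each cell type was precipitated once for H3K4me3 and once for H3K27me3 and sequenced beside 1 input, so nothing here has a replicate check, no test between cell types was possible, and the differences are differences between single libraries.

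Solute carriers are numbered by sequence family, and a family usually shares a class of substrate: family 1 carries glutamate and neutral amino acids, family 6 monoamines, GABA, glycine and other amino acids with sodium and chloride, and family 25 serves the mitochondrial inner membrane. In brain, carriers of the plasma membrane end transmission by taking transmitter back into neurons and astrocytes, and others set the chloride gradient, feed neurons with glucose and lactate, and load synaptic vesicles. H3K4me3 marks the start sites of active and of poised genes, and H3K27me3, laid down by Polycomb repressive complex 2, marks repressed ones. A start site with both in a cell population is often called bivalent, although the 2 marks may lie on different cells or alleles.

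Promoters of 7 carriers, 1 or 2 for each main pattern described below, show the kind of sequence that carries the marks. They are RefSeq sequences of the GRCm38.p6 assembly, from 250 bases before to 50 after the start, read 5′ to 3′ on the gene's strand, with each CG dinucleotide in capitals. They were picked by pattern among the 73 genes with 1 listed start and a gene length within 100 bp of the deposited mm9 gene, and the RefSeq start may still differ from the one scored.
Slc1a3, chr15:8710758-8711057, minus strand: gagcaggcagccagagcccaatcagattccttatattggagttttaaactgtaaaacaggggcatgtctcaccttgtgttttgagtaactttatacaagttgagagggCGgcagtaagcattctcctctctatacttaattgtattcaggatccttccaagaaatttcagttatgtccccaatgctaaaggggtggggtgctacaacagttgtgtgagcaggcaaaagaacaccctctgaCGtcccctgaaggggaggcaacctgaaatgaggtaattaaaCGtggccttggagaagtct
Slc25a1, chr16:17928170-17928469, minus strand: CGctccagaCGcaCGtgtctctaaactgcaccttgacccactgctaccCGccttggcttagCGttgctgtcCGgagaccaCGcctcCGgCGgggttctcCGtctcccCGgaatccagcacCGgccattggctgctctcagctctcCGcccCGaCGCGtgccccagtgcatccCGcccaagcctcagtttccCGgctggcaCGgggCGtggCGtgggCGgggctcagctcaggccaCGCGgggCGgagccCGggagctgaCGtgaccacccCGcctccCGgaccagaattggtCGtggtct
Slc1a1, chr19:28834885-28835184, plus strand: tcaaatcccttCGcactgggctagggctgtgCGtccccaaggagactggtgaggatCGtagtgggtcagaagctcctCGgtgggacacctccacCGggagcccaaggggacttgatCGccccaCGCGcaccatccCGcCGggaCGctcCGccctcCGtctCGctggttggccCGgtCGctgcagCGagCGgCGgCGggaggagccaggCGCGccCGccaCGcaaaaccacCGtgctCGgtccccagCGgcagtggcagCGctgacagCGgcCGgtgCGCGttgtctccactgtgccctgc
Slc6a4, chr11:76998347-76998646, plus strand: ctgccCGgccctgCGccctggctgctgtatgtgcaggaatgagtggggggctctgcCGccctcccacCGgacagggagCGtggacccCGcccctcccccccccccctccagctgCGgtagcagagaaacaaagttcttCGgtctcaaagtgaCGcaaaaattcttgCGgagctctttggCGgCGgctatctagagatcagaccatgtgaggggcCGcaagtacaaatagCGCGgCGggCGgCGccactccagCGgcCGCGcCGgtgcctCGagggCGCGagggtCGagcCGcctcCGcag
Slc7a8, chr14:54781837-54782136, minus strand: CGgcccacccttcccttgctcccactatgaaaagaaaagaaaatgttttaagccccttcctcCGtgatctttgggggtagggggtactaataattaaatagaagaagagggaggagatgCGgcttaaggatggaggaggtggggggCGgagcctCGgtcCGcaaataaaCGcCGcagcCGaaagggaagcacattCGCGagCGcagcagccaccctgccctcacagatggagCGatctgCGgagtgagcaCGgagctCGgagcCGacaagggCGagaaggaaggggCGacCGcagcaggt
Slc41a3, chr6:90618996-90619295, plus strand: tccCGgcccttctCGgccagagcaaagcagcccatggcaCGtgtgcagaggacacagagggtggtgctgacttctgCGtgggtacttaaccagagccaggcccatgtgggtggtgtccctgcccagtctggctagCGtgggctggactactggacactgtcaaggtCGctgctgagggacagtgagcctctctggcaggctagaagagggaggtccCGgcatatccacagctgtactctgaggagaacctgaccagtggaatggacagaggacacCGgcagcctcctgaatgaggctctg
Slc34a1, chr13:55399398-55399697, plus strand: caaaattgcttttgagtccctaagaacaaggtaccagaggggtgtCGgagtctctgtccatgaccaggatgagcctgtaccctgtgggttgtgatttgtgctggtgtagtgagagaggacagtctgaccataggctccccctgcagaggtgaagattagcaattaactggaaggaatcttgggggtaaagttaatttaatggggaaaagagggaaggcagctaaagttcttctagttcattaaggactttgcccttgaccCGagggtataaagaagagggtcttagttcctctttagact

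The promoter of Slc1a3, of the astrocytic glutamate carrier GLAST, held 3 CG, and that of Slc25a1, of the mitochondrial citrate carrier, held 30, although both genes carried H3K4me3 alone in both cell types. Slc1a1, of a neuronal glutamate carrier, had 32 CG, with no H3K4me3 in neurons and a peak in NSCs. Slc6a4, of the serotonin carrier, and Slc7a8, of a carrier of neutral amino acids, had 28 and 20 CG, with H3K27me3 alone in neurons and both marks in NSCs. Slc41a3, of the magnesium carrier family, had 8 CG, with H3K27me3 alone in neurons and H3K4me3 alone in NSCs. Slc34a1, of the renal phosphate carrier, had 2 CG and H3K27me3 alone in both. The motif CG, the same on both strands, is present in 94.6% of the 32851 promoters of the table, at a median of 7 per promoter. Of the member symbols 188, or 78.0%, were in the promoter table, under the 80% set as a minimum, so a comparison of CG content over all members is void.

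Of the 242 carrier genes, 151 had H3K4me3 in neurons and 192 in NSCs. Here a start site is marked when any peak of the authors' full peak list lies within 1000 bp of it. Over all genes the shares were 61.7% in neurons and 70.4% in NSCs, beside 62.4% and 79.3% of the carriers. H3K27me3 stood at 66 carriers in neurons and 62 in NSCs, which is 27.3% and 25.6%, beside 17.9% and 19.2% of all genes. When only the 14600 genes with a symbol are counted, the shares for H3K4me3 were 70.5% in neurons and 79.6% in NSCs, and for H3K27me3 16.7% and 18.2%. Carriers were near other named genes for H3K4me3 in NSCs, below them for H3K4me3 in neurons and above them for H3K27me3 in both cell types. In chromatin from a whole population, a mark on fewer cells and a weaker mark per cell cannot be told apart.

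The deposited gene tables, 3 of which keep only peaks at FDR under 1e-20, gave fewer marked start sites. By these tables H3K4me3 stood at 132 carriers in neurons and 165 in NSCs (51.6% and 58.5% of all genes), and H3K27me3 at 23 and 22 (5.09% and 7.74%). The same tables gave 42 losses of H3K4me3 (10.6% of all genes) and 9 gains (3.77%), 9 losses of H3K27me3 (4.43%) and 10 gains (1.77%), and both marks at 4 carriers in neurons and 8 in NSCs (0.831% and 2.32%). The tables differ from the lists in their limits, 0.001 for neuronal H3K4me3, and in which peak they give to a gene. All 9 start sites gained by the tables had an NSC H3K4me3 peak in the full list, at FDR under 1e-20 for 8 of them, so none was a gain by the lists.

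Most carriers kept 1 state. H3K4me3 alone in both cell types was found at 130 genes (53.7%, against 54.9% of all genes), H3K27me3 alone in both at 21 (8.68%, against 7.65%), and neither mark in either at 19 (7.85%, against 16.7%). The largest class of differing genes held 22 carriers with H3K27me3 alone in neurons and both marks in NSCs. That is 9.09% of carriers, against 3.18% of all genes. Both marks were present at 15 carriers in neurons and 36 in NSCs, with 4.59% and 8.53% of all genes in these states. No carrier gained H3K4me3 in neurons, against 0.831% of all genes and 0.685% of those with a symbol.

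**Figure D1:**
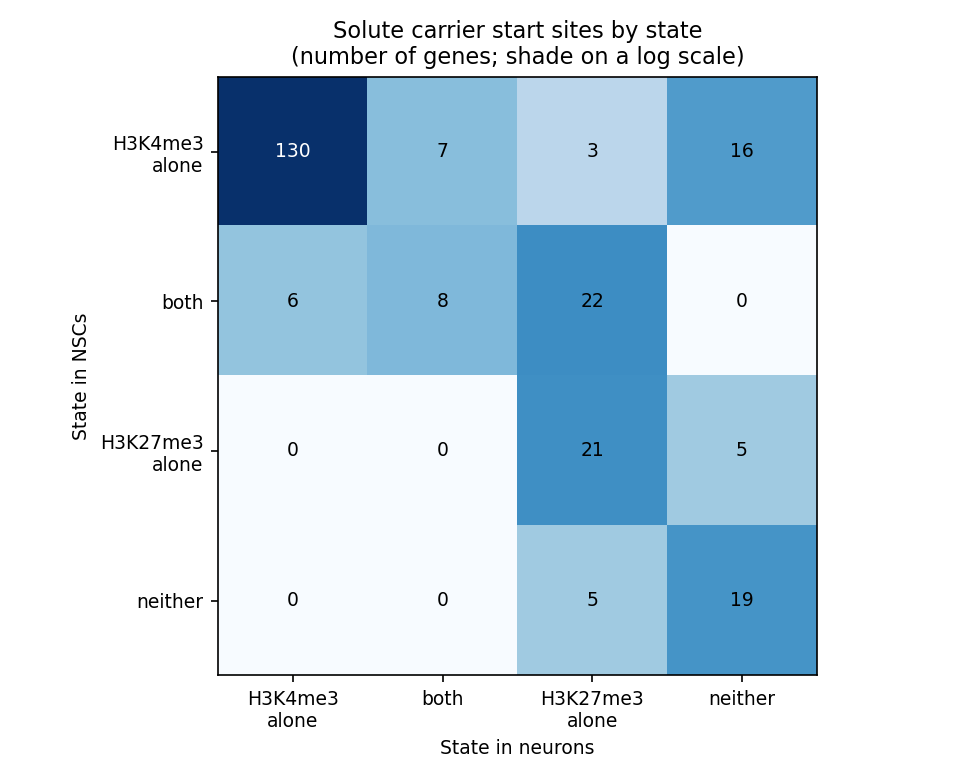
Number of solute carrier genes by state in neurons (columns) and in NSCs (rows), where a state is the set of marks with a peak within 1 kb of the start site and the shade is on a log scale. Below the top left cell with 130 genes, the fullest cells off the diagonal hold 22 genes (both marks in NSCs, H3K27me3 alone in neurons) and 16 genes (H3K4me3 alone in NSCs, neither mark in neurons).

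The neuron H3K4me3 library was less enriched: in 397 H3K4me3 peaks with equal bounds, neurons had 0.399 times the precipitated reads and 0.775 times the input reads of NSCs. At 7 carrier start sites with such peaks the neuron to NSC ratio of reads was 0.351. Neuron and NSC peaks held 983266 and 3623654 H3K4me3 reads, and 3161819 and 3272324 H3K27me3 reads. Input reads per kb of peak on chromosome 1 stood at 1.39 to 1.48 times the median autosome in the 4 libraries, and on the X chromosome at 0.546 to 0.661 times. Of the markers, the progenitor genes Nes, Sox2, Olig2 and Hes5 all had H3K4me3 in both cell types. The neuronal genes Dcx and Stmn3 had it in neurons only, while Tubb3 and Mapt, whose promoter drives the sorted reporter, had it in both and H3K27me3 in NSCs only. Among glial genes, Gfap had neither mark in either cell type, S100b had H3K4me3 in NSCs only, Aldh1l1 and Gja1 had H3K27me3 in neurons only, Gja1 with H3K4me3 in both, and Mbp had H3K27me3 in NSCs only.

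H3K4me3 was most frequent among the mitochondrial, zinc and nucleotide sugar carriers. Of the 35 scored mitochondrial carriers (family 25), 32 had it in neurons and 34 in NSCs, at a median peak width of 1400 bp in neurons and 2000 bp in NSCs. Slc25a48 alone of these had H3K27me3, over 16600 bp in neurons and 12400 bp in NSCs. Of the 22 nucleotide sugar carriers and relatives (family 35), which supply the Golgi and endoplasmic reticulum, 18 had H3K4me3 in neurons and 21 in NSCs. All 9 scored zinc importers (family 39) had H3K4me3 in both cell types and none had H3K27me3. Zinc exporters (family 30) had H3K4me3 at 7 of 9 in neurons and 8 of 9 in NSCs. Family 39 was the only family with 3 or more scored genes to carry H3K4me3 at every gene in neurons, while 8 of 28 such families did so in NSCs. Together, families 25, 35 and 39 had H3K4me3 at 59 of 66 genes in neurons and 64 in NSCs, whereas the other families had it at 92 of 176 and 128.

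Family 6 lay at the other end. H3K27me3 stood at 13 of its 16 scored genes in neurons and 12 in NSCs, while H3K4me3 stood at 2 in neurons and 8 in NSCs. Outside family 6, H3K27me3 was at 53 of 226 carriers in neurons and 50 in NSCs. Organic ion and drug carriers (family 22, of liver, kidney and brain barriers) had H3K4me3 at 3 of 14 in neurons and 7 in NSCs, and H3K27me3 at 4 and 3. Among sodium-proton exchangers (family 9, with 2 regulators), 9 of 11 had H3K4me3 in both cell types, and 5 had H3K27me3 in neurons against 3 in NSCs.

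**Figure D2:**
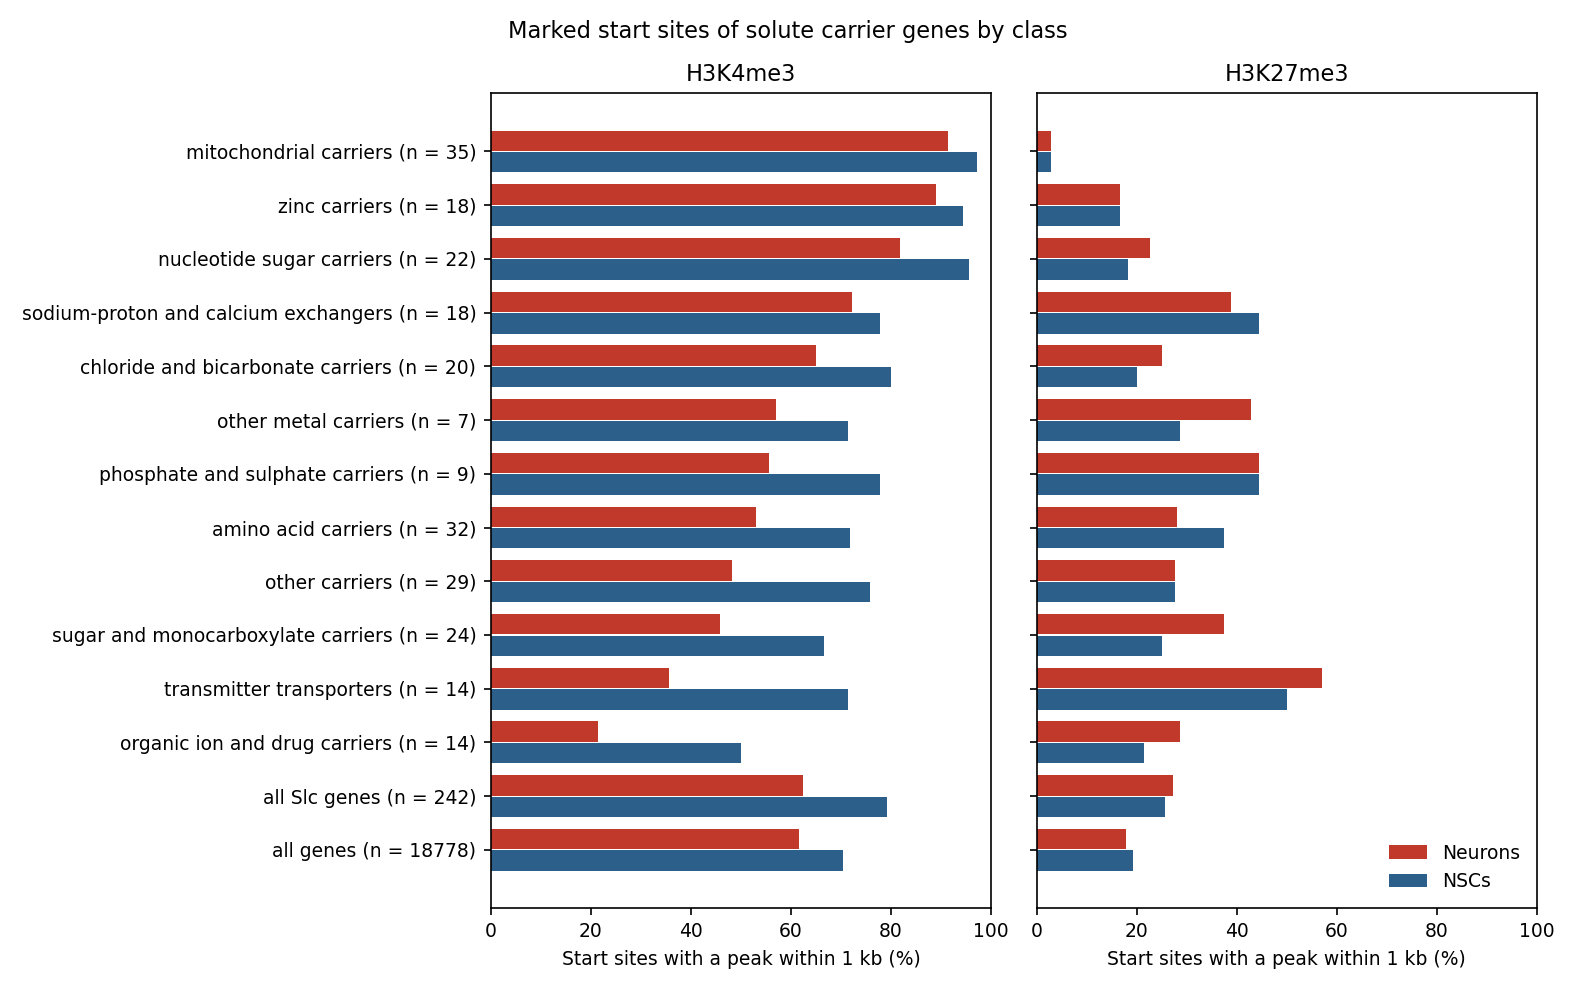
Share of start sites (%) with an H3K4me3 (left) or H3K27me3 (right) peak within 1 kb in neurons (upper bars) and NSCs (lower bars), by class of carrier, ordered by the neuronal H3K4me3 share, with the number of genes in brackets. Mitochondrial carriers reach 91.4% and 97.1% for H3K4me3, and transmitter transporters 57.1% and 50% for H3K27me3.

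Loss of the H3K4me3 call was the most frequent difference between the cell types. In neurons 41 carriers, or 40 symbols, had no H3K4me3 peak although NSCs had one, which is 16.9% of carriers beside 9.55% of all genes and 9.77% of those with a symbol. Of carriers with H3K4me3 in NSCs, 21.4% had lost it, against 13.6% of all such genes. The nearest neuronal H3K4me3 peak lay at a median of 51906 bp from these start sites, and beyond 10000 bp for 37 of the 41. Over all 1794 genes that had lost H3K4me3, the median was 34337 bp and 1405 lay beyond 10000 bp. The losses fell in 21 of the 44 families. With the lists cut to equal numbers of peaks 33 of the 41 held, and those of Slc6a3, Slc6a11, Slc10a6, Slc14a2, Slc16a12, Slc22a3, Slc27a2 and Slc35f2 did not. At FDR under 1e-20 in both lists 28 of the 41 held, while the total of losses was 87 (26.6% of all genes).

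The losses went with the state and the size of the NSC peak. Among carriers with both marks in NSCs, 22 of 36 (61.1%) had lost H3K4me3, against 42.2% of all 1601 such genes. Among carriers with H3K4me3 and no H3K27me3 in NSCs, 19 of 156 (12.2%) had lost it, against 9.62%. Lost peaks had a median of 1400 bp and 78 reads in NSCs, near the 1400 bp and 73 reads over all genes. Peaks present in both cell types had 2200 bp and 216 reads in NSCs, beside 2400 bp and 250 reads over all genes. Of carriers whose NSC peak was narrower than 2200 bp, the median over all genes, 18 of 28 with both marks and 14 of 74 with H3K4me3 alone had lost it (64.3% and 18.9%, against 50.3% and 19.1% of all genes). At or above that width it was 4 of 8 and 5 of 82 (50% and 6.1%, against 23.2% and 3.84%). The part of the lower neuronal enrichment in these losses was not tested.

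By reads, all 11 carriers whose NSC H3K4me3 peak had under 50 reads had lost the call, as had 15 of 22 at 50 to 99 reads and 8 of 29 at 100 to 149. Above that, 3 of 41, 2 of 52 and 2 of 37 had lost it in the bands from 150, 200 and 300 reads upward. The matching shares over all genes were 83.2%, 60.4%, 20.8%, 5.84%, 1.73% and 1.46%. The 2 carriers lost in the top band were Slc25a18 and Slc27a1, described with their classes below.

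**Figure D3:**
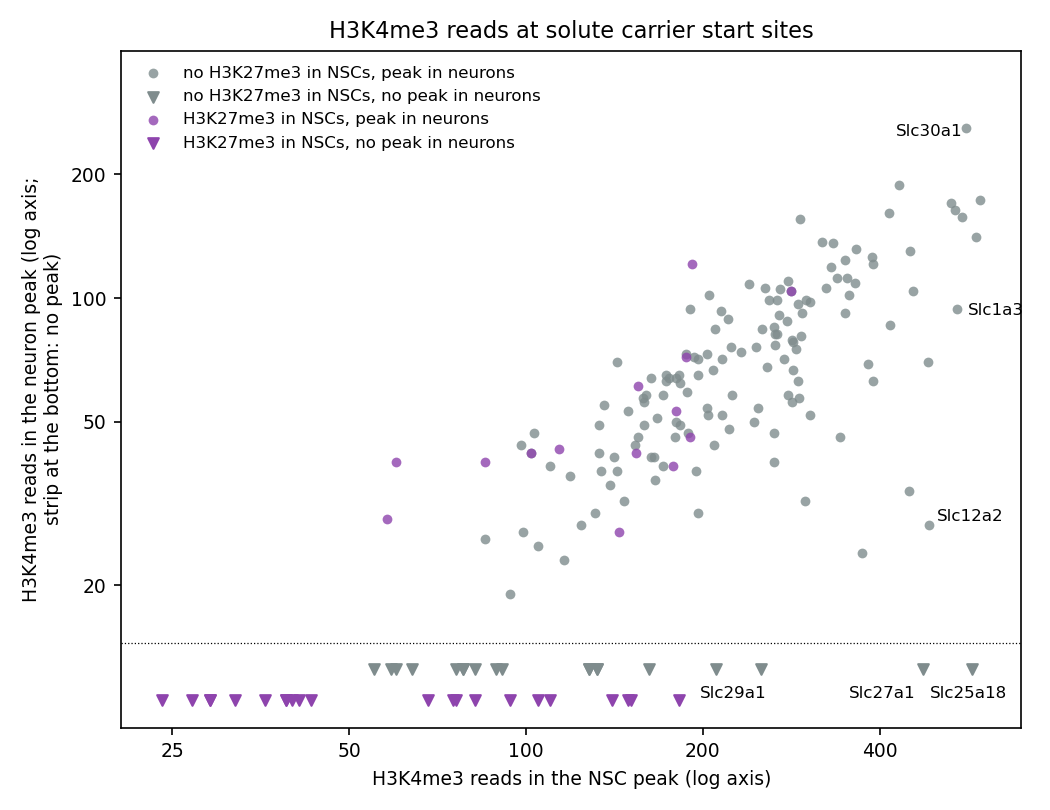
H3K4me3 reads in the neuron peak (vertical, log axis) against reads in the NSC peak (horizontal, log axis) at the 192 carrier start sites marked in NSCs, coloured by H3K27me3 in NSCs, with triangles below the dotted line for start sites without a neuronal peak. The triangles crowd at low NSC reads, and Slc25a18 with 574 and Slc27a1 with 475 NSC reads stand apart from them.

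Of the 20 listed transmitter transporter genes, 14 were scored. H3K4me3 was present at 5 of them in neurons and 10 in NSCs, and H3K27me3 at 8 in neurons and 7 in NSCs. Slc1a3 (GLAST) had the widest NSC peak of any carrier, and its neuronal peak was narrower: 3200 bp with 94 reads (95% Poisson interval 76.0 to 115) in neurons, against 8000 bp with 542 reads (497 to 590) in NSCs. In mm9 the NSC peak runs on chromosome 15 from 8653000 to 8660999, from the start site into the gene. Slc1a2, of the other main astrocytic glutamate carrier GLT-1, had 1800 bp and 48 reads in neurons, against 3000 bp and 222 reads in NSCs. Both of these kept the mark and had no H3K27me3 in either cell type. Slc6a9, of the glycine carrier GlyT1, and Slc18a1, of a vesicular monoamine carrier, likewise carried H3K4me3 in both without H3K27me3 at the start site. The H3K4me3 peak of Slc6a9 lay 889 bp from the start site in neurons and 289 bp in NSCs. The neuronal call at Slc6a9 therefore depends on the width of the window. What cells other than neurons contribute to these astrocytic and vesicular carrier values was not tested.

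Glutamate carriers of neurons had lost the call. Slc1a1 had no neuronal peak within 128661 bp, while the NSC peak spanned 1000 bp and held 60 reads over 4 of input. Slc1a6, of a carrier known from Purkinje cells, had H3K27me3 alone in neurons, in a 2200 bp domain, while NSCs had H3K4me3 over 2000 bp and H3K27me3 over 3600 bp.

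The monoamine carriers of the plasma membrane all lay in H3K27me3 in both cell types. Slc6a2, of the noradrenaline carrier, had the widest neuronal domain of any carrier, 40000 bp with 935 reads (876 to 997) in neurons, against 39200 bp with 929 reads (870 to 991) in NSCs. The neuronal domain runs on chromosome 8 from 95479000 to 95518999 and the NSC domain from 95461600 to 95500799, so the neuronal one lay further into the gene. Slc6a3, of the dopamine carrier, had H3K27me3 over 7800 bp in neurons and 11400 bp in NSCs, and its NSC H3K4me3 peak of 29 reads had no neuronal counterpart. Slc6a4 had H3K27me3 over 7600 bp with 162 reads (138 to 189) in neurons, against 5200 bp with 168 reads (144 to 195) in NSCs. Its H3K4me3 had no neuronal peak within 51906 bp, against 2400 bp with 149 reads over 24 input reads in NSCs. Slc6a4 is 1 of 9 carriers whose H3K27me3 domain was wider in neurons. Slc18a2, of the vesicular carrier that loads monoamines, had neither mark, and its nearest neuronal H3K27me3 peak was 2214 bp away.

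Among carriers of inhibitory transmitters, Slc6a11, of the astrocytic GABA carrier GAT3, had H3K27me3 over 14000 bp in neurons and 16800 bp in NSCs, and only NSCs had H3K4me3, with 43 reads over 15 input reads. Slc6a12, of the betaine and GABA carrier, had H3K27me3 over 2600 bp in neurons against 27600 bp in NSCs, the largest difference in width of any carrier. The neuronal domain held 64 reads over 21 input reads, at a listed fold over input of 3.20. The NSC domain held 540 over 341, at a listed fold of 2.21. Slc6a5, of the glycine carrier GlyT2 that marks glycinergic neurons, had H3K27me3 alone, over 15600 bp in neurons and 18200 bp in NSCs.

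**Figure D4:**
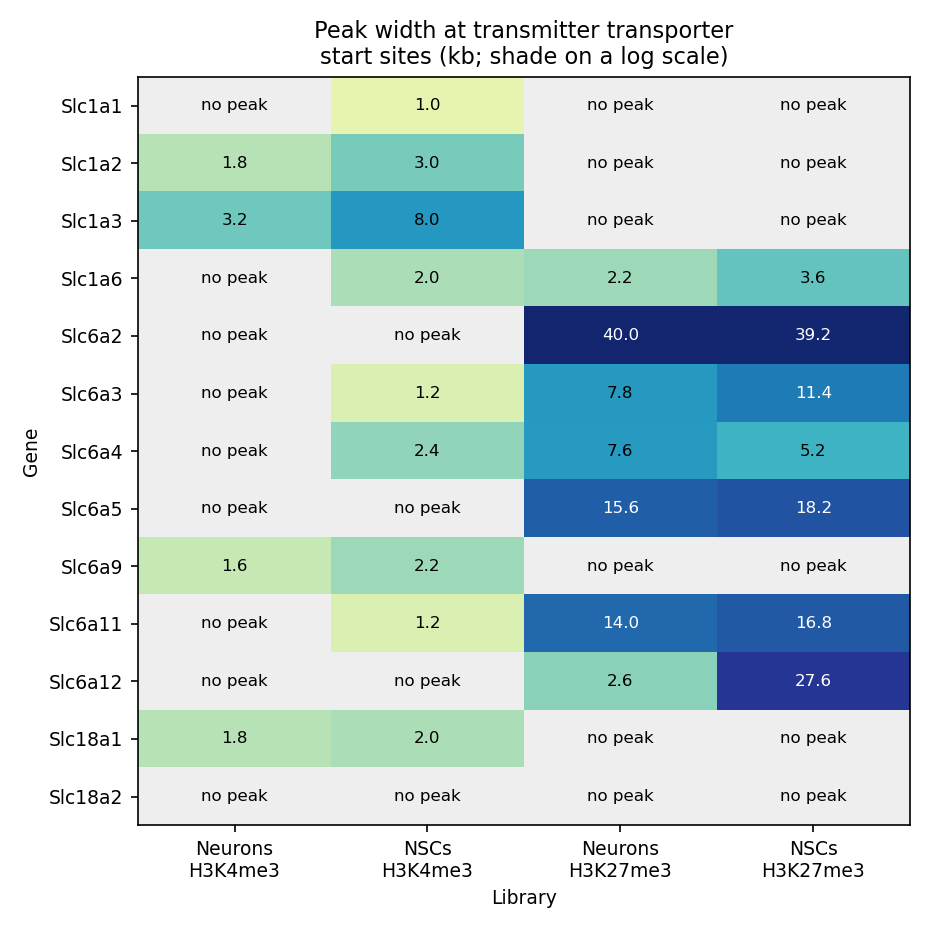
Peak width (kb, printed in each box) at the start sites of 13 scored transmitter transporters in the 4 libraries (columns), with grey where no peak lay within 1 kb and the shade on a log scale. The family 6 genes shown, except Slc6a9, have H3K27me3 domains of up to 40 kb and no neuronal H3K4me3. The neuronal H3K4me3 peak of Slc6a9 lies 889 bp from its start site.

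Of the 32 other amino acid carriers, 17 had H3K4me3 in neurons and 23 in NSCs, and H3K27me3 stood at 9 and 12. Slc1a5, of the glutamine carrier ASCT2, Slc6a8, of the creatine carrier, and Slc43a1, of a carrier of large neutral amino acids, had neither mark in neurons. Their NSC H3K4me3 peaks held 76, 91 and 89 reads. Slc6a15, Slc6a17 and Slc7a8, also of neutral amino acid carriers, had H3K27me3 alone in neurons and both marks in NSCs. Slc6a15 had the largest NSC H3K4me3 peak of these, with 151 reads, and no neuronal one within 2084523 bp. For Slc6a17 the domain spanned 17200 bp in neurons and 22200 bp in NSCs. Slc38a1, of the glutamine carrier SNAT1 found in neurons, went the other way in H3K27me3: it had H3K4me3 alone in neurons, and H3K4me3 with a 5600 bp H3K27me3 domain of 116 reads over 36 input reads in NSCs. The H3K4me3 peak of Slc38a1 had the same bounds in both cell types, 4200 bp wide, with 104 reads in neurons and 283 in NSCs. Slc7a10, of the carrier of glycine and D-serine Asc-1, had lost a 4400 bp H3K27me3 domain, with the nearest neuronal one 4796 bp away, and had no H3K4me3 at its start site.

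Sugar and monocarboxylate carriers included both housekeeping and neural genes. Slc2a1, of the general glucose carrier GLUT1, had H3K4me3 in both cell types, 800 bp with 30 reads in neurons and 1800 bp with 196 reads in NSCs. Slc2a3, of the neuronal glucose carrier GLUT3, kept H3K4me3, at 55 reads in neurons and 136 in NSCs. It also had a 2800 bp H3K27me3 domain in neurons, with 50 reads over 26 input reads and no NSC domain within 28463 bp. Slc16a1, of the lactate carrier MCT1, carried H3K4me3 in both without H3K27me3. Slc16a7, of MCT2, the lactate carrier of neurons, had a 9600 bp H3K27me3 domain in neurons with 209 reads over 82, and the nearest NSC domain was 5820 bp from its start site. It was the only gain of H3K27me3 among carriers that the deposited gene tables also gave. Slc2a6 and Slc2a10, of less studied glucose carriers, had neither mark in neurons and NSC H3K4me3 peaks of 78 and 128 reads. Slc16a10, of a carrier of aromatic amino acids, had H3K27me3 alone in neurons, over 1800 bp, where NSCs had H3K4me3 with 105 reads and a 2600 bp H3K27me3 domain. Slc16a12 had H3K27me3 over 9800 bp in neurons and 23200 bp in NSCs, and its NSC H3K4me3 peak of 41 reads was lost.

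Cation-chloride cotransporters set the direction of the GABA response. Slc12a5, of the neuronal chloride exporter KCC2, had neither mark in neurons, and its nearest neuronal H3K4me3 peak was 48317 bp away. In NSCs an H3K4me3 peak of 1000 bp at this site held 64 reads (49.3 to 81.7) over 10 of input. Slc12a2, of the chloride importer NKCC1, kept H3K4me3 over 800 bp with 28 reads in neurons, against 5800 bp with 485 reads in NSCs. That is the largest difference in H3K4me3 width among carriers marked in both. Slc12a9, an orphan of the family, had neither mark in neurons and an H3K4me3 peak of 162 reads over 14 in NSCs. Slc4a11, of a borate transporter relative expressed in cornea, had H3K27me3 alone in neurons, over 3400 bp, against H3K4me3 with 140 reads and 2800 bp of H3K27me3 in NSCs. The bicarbonate carrier gene Slc4a4, known from astrocytes, kept H3K4me3 and had a 1600 bp H3K27me3 domain with 32 reads in neurons alone, 757 bp from the start site.

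Some calcium exchangers differed in the H3K27me3 call. Slc8a2 and Slc8a3, of the sodium-calcium exchangers of brain, had no domain in neurons and 3800 bp and 3400 bp domains in NSCs. These NSC domains held 81 reads over 33 input reads and 47 over 34, at a listed fold over input of 3.43 and 1.93. Slc8a3 carried H3K4me3 in both, with 43 reads in neurons and 114 in NSCs, while Slc8a2 had none. Slc24a3, of a potassium-dependent exchanger, likewise had no H3K27me3 in neurons, against 2400 bp with 46 reads over 24 in NSCs, 910 bp from its start site. Its relatives Slc24a2 and Slc24a4 had both marks in both cell types, with H3K27me3 over 11600 and 6800 bp in neurons and 12200 and 8800 bp in NSCs. Slc24a6, of a sodium-calcium exchanger of mitochondria, had lost H3K4me3, with the nearest neuronal peak 7578 bp away. The H3K27me3 losses at Slc8a2, Slc8a3 and Slc24a3 held neither by the deposited gene tables nor at FDR under 1e-20.

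Metal carriers held the widest neuronal H3K4me3 peak. Slc30a1, of the zinc exporter ZnT1, had 5800 bp with 260 reads in neurons, against 4000 bp with 562 reads in NSCs. Slc30a3, of ZnT3, which loads zinc into glutamatergic synaptic vesicles, had H3K27me3 alone in neurons, over 10000 bp with 247 reads (217 to 280), against 26800 bp with 753 reads (700 to 809) in NSCs. Its NSC H3K4me3 peak of 2800 bp with 110 reads had no neuronal counterpart within 37989 bp. Slc40a1, of the iron exporter ferroportin, had both marks in both cell types, with H3K27me3 over 19400 bp in neurons and 27800 bp in NSCs. Slc41a3 had a 3800 bp H3K27me3 domain with 65 reads in neurons alone and a 1400 bp H3K4me3 peak with 82 reads in NSCs alone.

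Slc27a1 and Slc29a1 showed the same exchange of marks as Slc41a3, and these were the only 3 carriers to do so (1.24%, against 0.655% of all genes). Slc27a1, of a fatty acid transport protein, had H3K27me3 over 3200 bp with 64 reads over 25 in neurons, where NSCs had H3K4me3 over 5600 bp with 475 reads (433 to 520) over 67. Slc29a1, of the nucleoside carrier ENT1, had H3K27me3 over 3000 bp with 57 reads over 31 in neurons, where NSCs had H3K4me3 over 4200 bp with 211 reads over 43. Slc25a18, of a mitochondrial glutamate carrier, had the second widest NSC H3K4me3 peak among carriers, 6800 bp with 574 reads (528 to 623) over 117. Neurons had no H3K4me3 peak within 47604 bp of Slc25a18, and neither cell type had H3K27me3 there. Slc25a18 stands on chromosome 6, where the NSC peak runs from 120721200 to 120727999.

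The remaining losses of H3K4me3 fell among smaller groups. Slc22a3, of the organic cation carrier OCT3, and Slc22a21, of a carnitine carrier, had H3K27me3 alone in neurons, over 4400 bp and 3000 bp, and both marks in NSCs, with H3K27me3 over 15600 bp and 5000 bp. Their NSC H3K4me3 peaks held 24 and 182 reads, the lowest and the highest of the 22 start sites with this pattern. Slc35a2, of the Golgi UDP-galactose carrier, had neither mark in neurons and an NSC H3K4me3 peak of 128 reads over 7. Slc10a3, also on the X chromosome, had an NSC peak of 59 reads, and its nearest neuronal peak, at 4689 bp, was the closest to any lost start site. Slc15a4, of a lysosomal peptide and histidine carrier, Slc29a4, of the plasma membrane monoamine transporter, and the family 35 members Slc35f2 and Slc35f3 had H3K27me3 alone in neurons. The NSC H3K4me3 peaks of these 4 held 27 to 68 reads.

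H3K27me3 calls differed in both directions. In neurons 11 carriers had lost H3K27me3 (4.55%, against 4.85% of all genes) and 15 had gained it (6.2%, against 3.56%). Of the genes with a symbol, 4.54% had lost it and 3.03% had gained it. Set against the NSC state, 17.7% of carriers with H3K27me3 in NSCs had lost it (25.3% of all such genes), and 8.33% of those without had gained it (4.4%). Of carriers with H3K27me3 in NSCs, 58.1% also had H3K4me3 there, against 44.5% of all such genes. Of the 11 losses, 6 start sites kept H3K4me3: Slc8a3, Slc24a3, Slc27a4, Slc36a4, Slc38a1 and Slc44a5. Slc44a5, of a choline carrier-like protein, had no neuronal domain within 38200 bp, against 5000 bp with 107 reads over 34 in NSCs. The other 5, Slc6a20b, Slc7a10, Slc8a2, Slc22a18 and Slc26a5, had neither mark in neurons. Of the 15 gains, 7 kept H3K4me3 and so had both marks in neurons, among them Slc2a3, Slc4a4, Slc9a3r1, Slc9a5, Slc16a14 and Slc35f1. Another 5 had neither mark in NSCs: Slc6a6, Slc16a7, Slc22a6, Slc22a8 and Slc26a7. The gained domains had a median of 2800 bp and 50 reads in neurons, beside 3000 bp and 59 reads over all genes. Domains shared by both cell types had 5200 bp and 135 reads in neurons and 7800 bp and 184 reads in NSCs. Over all genes the shared domains had 5800 bp and 130 reads in neurons and 9600 bp and 210 reads in NSCs. None of the 15 gains held under all 6 alternative rules tried, and of the 11 losses Slc38a1 and Slc44a5 did. Some calls sat near the limit of 1000 bp. Slc35f1 counted as gained with an NSC domain at 1061 bp, and Slc36a4 as lost with a neuronal domain at 1183 bp. Just inside the limit were the neuronal domains of Slc30a8 at 892 bp and of Slc4a4 at 757 bp, and the NSC domain of Slc24a3 at 910 bp. For H3K4me3, the neuronal peaks of Slc6a9 at 889 bp and of Slc25a46 at 584 bp were also inside it.

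The 22 carriers with H3K27me3 alone in neurons and both marks in NSCs had H3K27me3 domains of similar median size. Their H3K27me3 domains had a median of 7500 bp and 159.5 reads in neurons, against 6400 bp and 163.5 reads in NSCs, though 16 of the 22 were narrower in neurons and 6 wider. The 8 carriers that kept both marks had domains of 10300 bp and 211.5 reads in neurons, against 15400 bp and 402 reads in NSCs. The 8 were Slc9a2, Slc24a2, Slc24a4, Slc26a4, Slc30a10, Slc35d3, Slc40a1 and Slc45a3. In NSCs the H3K4me3 peaks of these 8 held 58 to 190 reads, at a median of 149, and those of the 22 held 24 to 182, at a median of 55.5. Chromosome 1, where input reads stood higher, held 4 of the 8, none of the 22 and 15 of the 242 carriers. Over all genes, both marks had been kept at 62.5% of the 160 genes with both in NSCs on chromosome 1 and at 34.3% of 1431 on the other autosomes. On the X chromosome, where input reads stood lower, 4 of 8 carriers had lost H3K4me3, beside 27.2% of the 400 marked genes there and 13.4% on the other autosomes. The part of copy number or coverage in these values was not tested.

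Widths differed in the same direction for both marks. Among the 151 carriers with H3K4me3 in both cell types, 19 peaks were wider in neurons, 120 narrower and 12 equal. Wider peaks were 12.6% and narrower ones 79.5%, near the 11% and 81.1% over all genes. The median neuron to NSC ratio was 0.722, against 0.733 over all genes. Among the 51 with H3K27me3 in both, 9 domains were wider in neurons (17.6%, against 21.2% over all genes) and 42 narrower (82.4%, against 76.6%). Their median ratio was 0.684, against 0.667 over all genes. The widest neuronal H3K4me3 peaks after that of Slc30a1 were those of Slc38a1 at 4200 bp, Slc22a23 at 4000 bp, and Slc10a7 and Slc30a7 at 3600 bp. H3K4me3 peaks wider in neurons included those of Slc30a1 and Slc30a7, of zinc exporters, Slc2a13, of the proton-coupled inositol carrier, Slc35f5 and Slc36a4. Slc2a13 had 2800 bp with 94 reads in neurons, against 1400 bp with 190 reads in NSCs. After Slc12a2, the H3K4me3 peaks narrower in neurons by most bases were those of Slc1a3, Slc25a29, Slc5a3 and Slc1a4. Slc5a3, of the sodium-coupled inositol carrier, had 2000 bp with 104 reads in neurons, against 5600 bp with 456 reads in NSCs.

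H3K27me3 was wider in neurons by the largest margin at Slc37a1, of a sugar phosphate carrier of the endoplasmic reticulum. Its domain covered 13800 bp with 307 reads (274 to 343) in neurons, on chromosome 17 from 31432000 to 31445799, against 1800 bp with 47 reads (34.5 to 62.5) in NSCs. The start site of Slc37a1 had also lost an H3K4me3 peak of 82 NSC reads. Slc25a48, Slc34a1, Slc6a4 and Slc10a6 followed, and of these only Slc34a1 had had no H3K4me3 in NSCs. Slc45a3, with both marks in both cell types, had 17800 bp in neurons and 19600 bp in NSCs. The widest NSC domain, at the sodium-proton exchanger gene Slc9a2 on chromosome 1, measured 25200 bp with 793 reads in neurons, against 49200 bp with 1494 reads in NSCs. Slc13a5, of the citrate carrier, had 7600 bp in neurons against 26000 bp in NSCs, and Slc9a4 3600 bp against 24600 bp. Domains of 10000 bp or more lay over 14 carrier start sites in neurons and 24 in NSCs, and 4 of the 14 and 8 of the 24 belonged to family 6. Of the carriers marked by H3K27me3 these were 21.2% in neurons and 38.7% in NSCs, near the 23.3% and 42.2% of all marked genes.

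**Figure D5:**
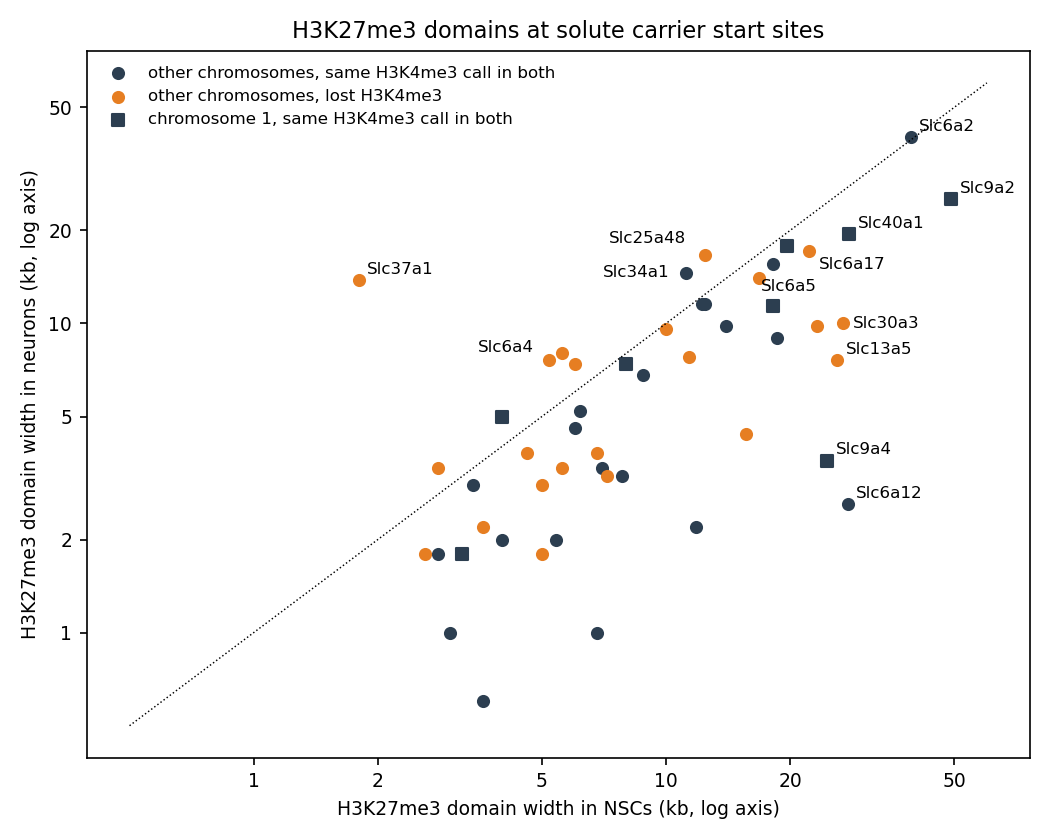
Width of the H3K27me3 domain in neurons (vertical, kb, log axis) against its width in NSCs (horizontal, kb, log axis) at the 51 carrier start sites marked in both, with squares for chromosome 1, orange for start sites that had lost H3K4me3 and a dotted line at equal width. Most points lie below the line, and Slc37a1, at 13.8 kb in neurons and 1.8 kb in NSCs, lies farthest above it.

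Carriers shared few peaks with each other, but more with other genes. In neurons the 151 H3K4me3 marked carriers had 151 separate peaks, of which 39 also marked the start site of another gene, and in NSCs 192 carriers had 191 peaks, of which the peaks of 46 carriers marked another gene. The only peak that marked 2 member identifiers was that of Slc22a15. For H3K27me3 the domains of 9 carriers in neurons and 10 in NSCs also covered another start site. The matching shares over all genes are not given here, and which gene a shared peak belongs to was not tested. Of the 19 carriers with no mark in either cell type, 13 had no peak of either mark within 10000 bp.

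Genes with symbols like those of other membrane transporters are set beside the carriers for scale. These lists follow the symbol alone, so they can hold genes that transport nothing and can miss true pumps. The first takes symbols of Atp, a number and a letter from a to d, f or g, which ATP synthase subunits can also match. Of its 43 genes, 30 had H3K4me3 in neurons and 31 in NSCs, and 1 had lost it. Of 32 genes with Abc symbols, 22 had H3K4me3 in neurons and 25 in NSCs, with H3K27me3 at 2 and 4. The 8 scored Slco genes, of organic anion carriers numbered apart from the Slc families, had H3K27me3 at 6 in neurons and 5 in NSCs, and 2 had gained H3K4me3. Of 3 aquaporin genes 1 had H3K4me3 in both cell types. Of the genes marked in NSCs, H3K4me3 had been lost at 21.4% of carriers and 13.6% of all genes. The shares were 3.23% in the Atp list, 12% in the Abc list and 33.3% of the 3 Slco genes. No test of these differences was made.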

How the data were processed

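Per the submitters' processing notes, FastQC, Bowtie, SAMtools and SICER were used, without versions, on mouse build mm9. Their settings, which the sources used here do not give, may change bounds. The authors deposited 1 peak list per precipitated library, with a read count for precipitate and input, a p-value and an adjusted p-value (FDR), and the fold over input. They also deposited gene tables of the peak nearest each gene. A deposited score was not used, and the inputs entered only through these lists. Reads given over input reads are raw counts. The listed fold differs from their ratio, most for NSC H3K27me3, where it is higher, so such pairs do not compare enrichment between libraries. Bounds move in steps of 200 bp, and listed peaks have an FDR under 0.001. The gene tables hold peaks at FDR under 1e-20 except that of neuron H3K4me3.

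Start sites are the 5′ ends of the deposited genes by strand. A peak within 1000 bp marks it, and the widest such peak gives width and reads. A mark is lost where NSCs alone had it and gained where neurons alone had it. These are calls in 1 library per cell type and antibody, without a test. Poisson intervals (95%) cover counting error only. Total depths are unknown, since the files count reads in peaks alone.

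The members and lists were chosen with earlier results of these data known. Genes were named by rule: transmitter transporters, calls that held by peak list and gene table, the 5 extremes of width, and genes with both marks. Others in the same classes, among them Slc2a1, Slc16a1 and Slc25a1, were named after their values were seen. Some members are counted but not reported by name here. Classes follow family numbers. With simulated peaks at known offsets, 0 of 200 states were wrong. With the NSC H3K27me3 peaks thinned at random, 0 of 1000 distances were wrong. Scripts ran in Python 3.11.15, with numpy 2.4.6 and pandas 2.3.3 for tables, scipy 1.17.1 for intervals and matplotlib 3.10.9 for plots.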

Additional observations from a re-analysis of the deposited data

How the results depend on the processing

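No paired analysis was possible because each cell type had 1 library per antibody. Of 88 values recomputed for 16 results, 73 stayed within 1.5 times the reported count or within the interval of the median. No median width ratio changed direction, which the counts of carriers could not do. A window of 500 or 2000 bp, equal numbers of peaks in the 2 cell types, summed widths and leaving out chromosome 1 moved no value out of these limits. By the authors' gene tables, 9 carriers had gained H3K4me3 (3.77% of all genes), H3K27me3 stood at 23 in neurons and 22 in NSCs (5.09% and 7.74%), and both marks at 4 and 8 (0.831% and 2.32%). At FDR under 1e-20 in every list, 91 carriers had H3K4me3 in neurons (37.6%, against 40% of all genes) and 87 had lost it (26.6% of all genes). At that limit H3K27me3 stood at 40 carriers in neurons (9.65% of all genes) and 7 had gained it (1.93%). Both marks stood at 1 carrier in neurons (0.413%, against 0.559% of all genes) and at 14 in NSCs (4.28% of all genes). For H3K4me3 and for both marks in neurons, carriers thus lay below all genes here and above them under the reported rule. At the same limit 71 H3K4me3 and 26 H3K27me3 peaks were narrower in neurons. These were 78% and 78.8% of the carriers marked in both cell types, against 79.4% and 75.2% of all genes. Where absence required no peak within 10000 bp, 7 losses and 8 gains of H3K27me3 remained, which are 2.89% and 3.31% of carriers against 1.71% and 2.25% of all genes, so that carriers stood above all genes for losses here and just below under the reported rule. Under all 6 rules that could change a call, 25 of the 41 losses of H3K4me3 held, as did 2 of the 11 losses of H3K27me3 (Slc38a1 and Slc44a5) and 0 of the 15 gains. The losses at Slc6a3, Slc6a11, Slc16a12, Slc22a3, Slc27a2, Slc10a6, Slc35f2 and Slc14a2 did not hold with equal numbers of peaks. Weak NSC peaks in 1 library limit what the absence of a neuronal peak can show.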
